A study of Homo sapiens with 6 samples.

Results

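The comparison set RNA of HepG2 cells after 3 h of a Scutellaria baicalensis extract against RNA of HepG2 cells after 1 h of the same extract, with no use of the control array. HepG2 is an established human hepatoma line, and Scutellaria baicalensis is a flavonoid-rich plant of the mint family. Both dishes received 100 µg/ml of extract, and each time was read on 1 one-colour Agilent array, out of 6 arrays in the series (control, 1, 3, 6, 12 and 24 h). The labels give no vehicle and no time for the control, so the extract's effect over these hours and that of handling the dishes cannot be told apart. A gene entered when its probe lay well above background on both arrays and was saturated on neither, which left 13134 of 17515 named genes. Of the rest, 3247 were below background on both arrays, 591 passed at 3 h alone, 186 passed at 1 h alone and 357 were saturated.

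Plant flavonoids are common ligands of the aryl hydrocarbon receptor (AhR), a cytosolic transcription factor that moves to the nucleus when bound, pairs with ARNT and switches on detoxifying enzymes, above all CYP1A1. Immediate early genes such as FOS are copied within minutes of a stimulus and their RNA is short-lived. Genes of growth arrest are held on by FOXO factors when insulin and growth signals are weak. Ribosome biogenesis genes, many of them targets of MYC, serve cell growth.

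Levels are log2 processed signals minus log2 of the array's 75th percentile, so a level of 0 is the signal that 75% of probes do not exceed. Differences are 3 h minus 1 h on the same log2 scale. With 1 array at each time there is no spread between replicates and no p-value. The ± after a difference is an SD that says how far probes aimed at 1 gene scatter at its level of signal (0.30, or 1.23-fold, over 4795 pairs). Such pairs share their dishes, labellings and arrays, so the ± holds none of the variation between these. The gene lists below were chosen with earlier results of these data known. A list's share beside that of all genes therefore describes these arrays and is no test.

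The arrays were of unlike brightness, with a 75th percentile of 988 units at 1 h and 1710 at 3 h, and 70.5% and 73.3% of probes lay well above background. All 10 markers of the hepatocyte lineage that were checked, among them ALB, AFP and TTR, were above background on both arrays, and 9 were saturated. Of 12 haematopoietic markers 9 were above background at each time, of 12 endothelial markers 5 and 6, and of 12 fibroblast or stellate markers 4 and 5. PTPRC, CDH5, KDR, COL1A1 and COL1A2 were among those above background at neither time. Others were bright at both times, with 1 h levels of 2.33 for LYZ, 1.82 for CD79A and 2.71 for ACTA2. The summed linear level of the haematopoietic list was 11.5 times the 75th percentile at 1 h and 9.77 at 3 h. That of the fibroblast list was 9.29 and 7.05, and that of the endothelial list 0.45 and 0.41. Of 12 epithelial and biliary markers 8 and 7 were above background, 1 of them saturated, and of the 6 measured 5 lay above 0. The part of these lists in any result was not tested, and in bulk RNA fewer cells of a type and less RNA per cell cannot be told apart.

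Most genes differed little between the arrays. The median difference was 0.00, the middle 50% of genes lay between -0.26 and 0.26, and 85.6% were within 1.5-fold. At least 2-fold higher at 3 h were 154 genes, 1.17% of those measured, and at least 2-fold lower were 211, or 1.61%. In all, 2.78% were past 2-fold. The 1.5-fold line was passed upward by 922 genes (7.02%) and downward by 966 (7.35%). Split into 5 equal classes of level, the dimmest held 76 of the 154 higher and 63 of the 211 lower genes, and the brightest 8 and 17. The SD of a probe's difference was 0.40 in the former and 0.27 in the latter. With normexp background correction the counts were 42 higher and 144 lower, so the ratio of the directions depended on the background correction.

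**Figure D1:**
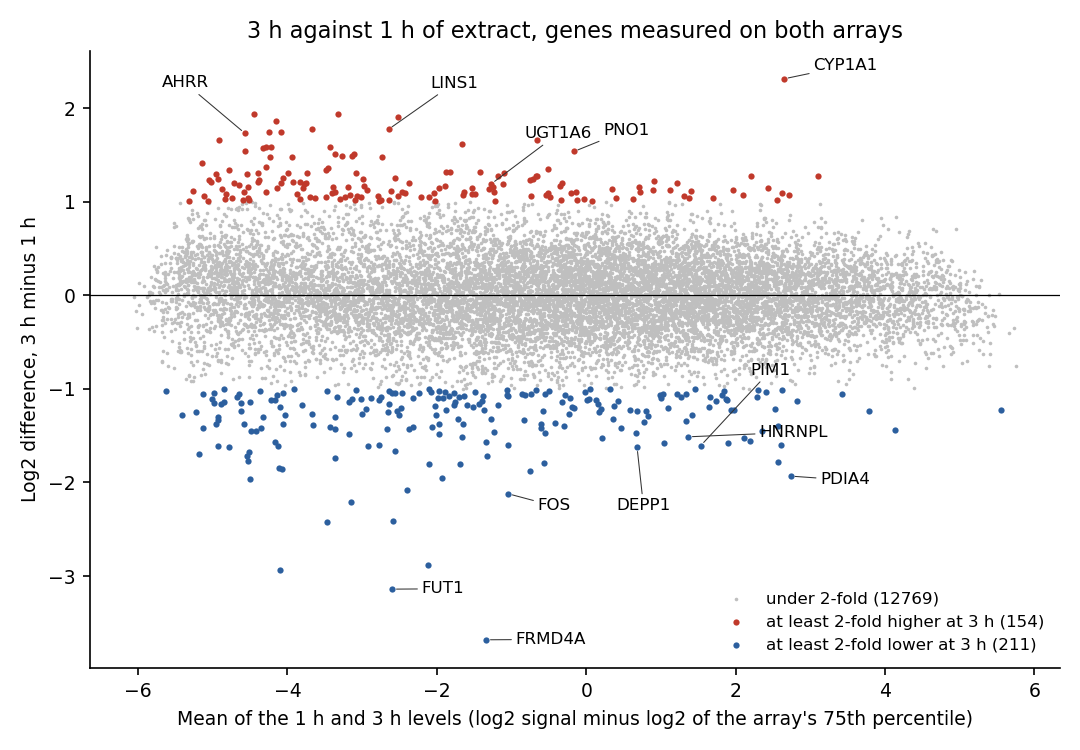
Each point is a gene measured on both arrays, with the mean of its 1 h and 3 h levels on the x axis (log2, relative to the array's 75th percentile) and its log2 difference, 3 h minus 1 h, on the y axis. Red points are the 154 genes at least 2-fold higher at 3 h and blue points the 211 at least 2-fold lower; CYP1A1 stands alone among bright genes at 2.31, and most coloured points lie toward the dim side.

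CYP1A1, the enzyme that oxidises polycyclic aromatic compounds and the classic AhR target, had the largest increase. Its level was 1.49 at 1 h and 3.80 at 3 h, a difference of 2.31 ± 0.27, or 4.97-fold. It was the only measured gene at least 4-fold higher. Under all 10 alternative ways of processing that could be applied to it the difference lay between 2.29 and 2.38. It had a single measured probe, so the filters and probe rules among these could not change its difference. On the other arrays its level was 1.05 in the control, 4.58 at 6 h, 4.93 at 12 h and 4.21 at 24 h.

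Of 18 AhR targets in the list, 10 were measured, 3 of them at least 2-fold higher (30%, beside 1.17% of all genes) and none at least 2-fold lower. The median of the 10 was 0.43, against 0.00 for all genes. AHRR, the repressor that AhR induces against itself, went from -5.44 to -3.71, a difference of 1.73 ± 0.40. AHRR is a dim gene, and with normexp background correction its difference was 0.50. UGT1A6, which glucuronidates phenols, went from -1.87 to -0.68, a difference of 1.19 ± 0.35, and its other probe gave 1.80. The UGT1A genes share exons, so these probes may also read the neighbouring members. TIPARP, a mono-ADP-ribosyltransferase that limits AhR, went from -0.34 to 0.32, a difference of 0.65 ± 0.29. Its level on the control array was 0.39, so at 3 h it was not above the control. At 6, 12 and 24 h it stood at -0.81, -0.39 and -0.56 against the control. CYP1A2, the liver's sister enzyme of CYP1A1, differed by 0.21 ± 0.27 and NQO1, a quinone reductase, by 0.29 ± 0.27, both about the size of the error. SLC7A5, an amino acid transporter, was on the other side at -0.50 ± 0.27.

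Genes of the receptor's own machinery showed no shared increase. Of 9 measured genes of the AhR core (receptor, partner, chaperones and coactivators), none was past 2-fold and the median was -0.07. ARNT, the partner of AhR, differed by -0.38 ± 0.40, with its other probe at -0.49. NCOA3, a coactivator, differed by -0.78 ± 0.27, with its other probes between -0.60 and -0.58. SRC, the kinase released from the AhR complex, differed by -0.88 ± 0.27. PTGES3, a co-chaperone, differed by 0.08 ± 0.27 by its own probe, while its other probes lay between 0.58 and 0.74.

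The AhR-ARNT pair binds DNA at the letters GCGTG. The promoters of the 3 targets past 2-fold, CYP1A1, AHRR and UGT1A6, and of TIPARP are printed to show where these letters fall in them. They come from RefSeq (GRCh38.p14), run from 250 bases before to 50 after the gene's start, and are written 5′ to 3′ along the gene with GCGTG or its reverse complement CACGC in capitals. CYP1A1 lies at chr15:74725479-74725778 on the minus strand, AHRR at chr5:321464-321763 on the plus strand, UGT1A6 at chr2:233691452-233691751 on the plus strand and TIPARP at chr3:156674340-156674639 on the plus strand.
CYP1A1: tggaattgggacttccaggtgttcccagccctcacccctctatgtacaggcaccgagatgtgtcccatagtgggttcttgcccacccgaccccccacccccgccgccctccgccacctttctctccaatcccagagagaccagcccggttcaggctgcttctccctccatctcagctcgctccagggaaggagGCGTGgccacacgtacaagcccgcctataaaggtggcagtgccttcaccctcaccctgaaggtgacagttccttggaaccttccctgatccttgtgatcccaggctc
AHRR: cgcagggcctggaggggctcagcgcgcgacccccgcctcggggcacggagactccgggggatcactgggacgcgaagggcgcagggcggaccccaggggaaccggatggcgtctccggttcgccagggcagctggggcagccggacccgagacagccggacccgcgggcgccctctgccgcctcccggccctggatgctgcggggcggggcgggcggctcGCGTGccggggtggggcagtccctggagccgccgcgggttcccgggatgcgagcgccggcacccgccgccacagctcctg
UGT1A6: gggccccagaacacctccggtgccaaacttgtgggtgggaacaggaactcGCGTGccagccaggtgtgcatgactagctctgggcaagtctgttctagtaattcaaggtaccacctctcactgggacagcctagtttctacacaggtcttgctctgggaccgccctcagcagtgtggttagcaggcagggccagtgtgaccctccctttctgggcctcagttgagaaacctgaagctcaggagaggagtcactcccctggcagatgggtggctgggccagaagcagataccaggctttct
TIPARP: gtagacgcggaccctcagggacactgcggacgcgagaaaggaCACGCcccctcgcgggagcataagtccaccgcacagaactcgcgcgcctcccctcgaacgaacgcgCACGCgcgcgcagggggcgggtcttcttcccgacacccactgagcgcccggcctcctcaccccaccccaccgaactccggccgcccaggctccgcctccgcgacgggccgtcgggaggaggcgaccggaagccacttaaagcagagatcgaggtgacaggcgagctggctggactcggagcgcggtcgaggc
The match starts 57 bases before the start site in CYP1A1 30 before it in AHRR and 200 before it in UGT1A6, and TIPARP has matches 208 and 142 bases before it. The well-known enhancer sites of CYP1A1 lie farther upstream, outside this window. A match was found in 8 of 9 AhR targets with a promoter in the table, among them SLC7A5 and HES1, which stood at -0.50 and -0.18. The letters are common, in 36.3% of all 27305 promoters and in 48.7% of the 10529 measured genes matched by symbol. They were in 70 of 116 promoters of the higher genes (60.3%) and in 77 of 167 of the lower genes (46.1%). These matches describe letters in a window and show no binding.

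**Figure D2:**
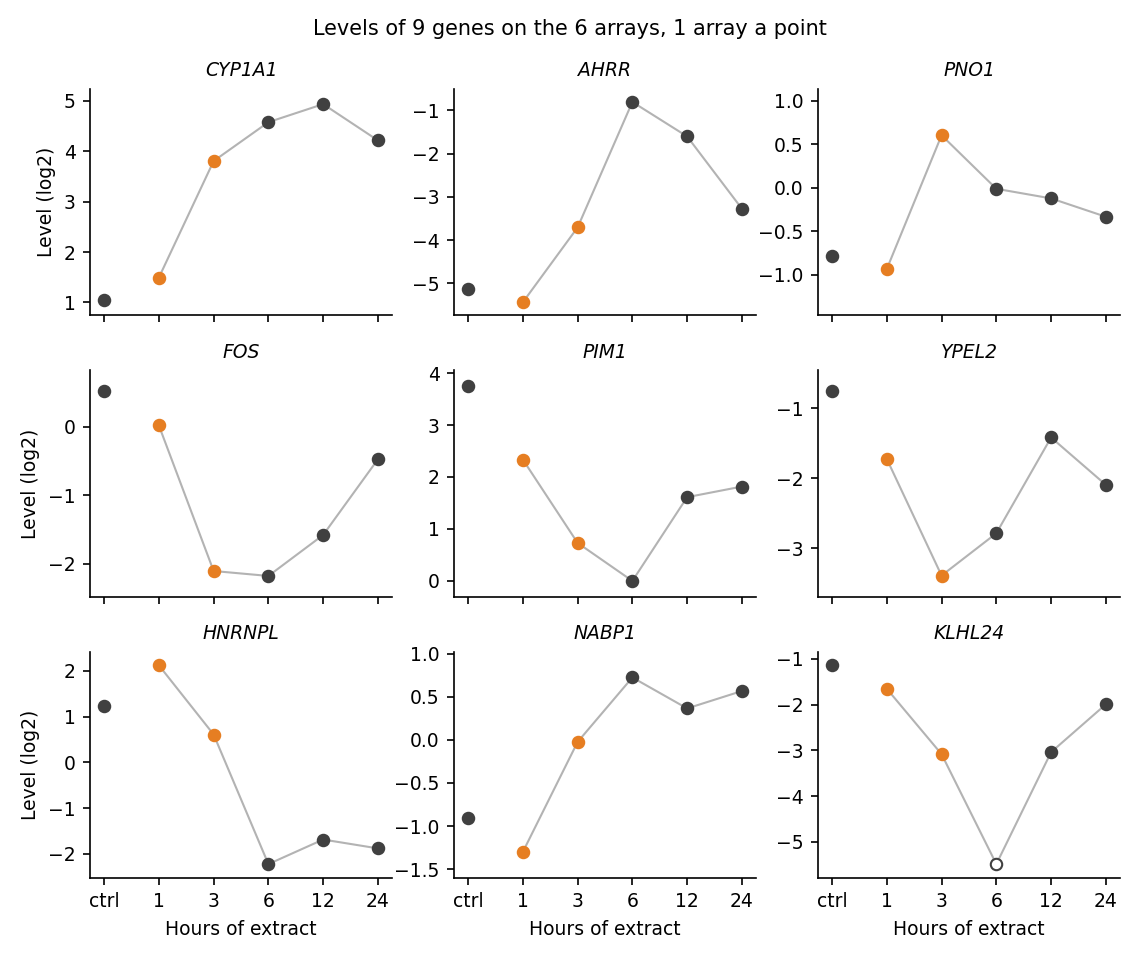
Levels of 9 genes (log2, relative to the array's 75th percentile) on the control array and after 1, 3, 6, 12 and 24 h of extract, 1 array a point, with the 1 h and 3 h arrays in orange and a hollow point where the probe was not well above background. CYP1A1, AHRR, PNO1 and NABP1 were higher at 3 h than at 1 h, while FOS, PIM1, YPEL2, HNRNPL and KLHL24 were lower, and FOS and PIM1 were lowest at 6 h.

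Genes of ribosome manufacture were higher at 3 h as a group. Of 40 measured ribosome biogenesis genes 33 lay above 0 and 7 below. At least 1.5-fold higher were 10 (beside 7.02% of all genes), and none was as far lower (beside 7.35%). Their median was 0.36, and it lay between 0.36 and 0.40 over the 6 ways of scaling or correcting the signal. For the 15 members with another probe the median of those probes was 0.32. PNO1, an assembly factor of the small subunit, went from -0.93 to 0.60, a difference of 1.54 ± 0.29, or 2.90-fold. LTV1, which acts late on the same particle, went from 2.17 to 3.24 (1.07 ± 0.27). BRIX1, a factor of the large subunit, went from 0.77 to 1.83 (1.06 ± 0.27), and its other probe gave 1.26.

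A list that pools RNA polymerases I and III, and so is not confined to ribosomal RNA genes, shared this direction. Above 0 lay 25 of its members and below 0 lay 8. Of 33 measured genes of RNA polymerases I and III and their factors, 10 were at least 1.5-fold higher (beside 7.02% of all genes) and none as far lower (beside 7.35%), with a median of 0.36 and of 0.36 over the other probes of 16 members. POLR1C, a subunit common to both polymerases, went from 0.29 to 1.51, a difference of 1.22 ± 0.27. UBTF, the upstream binding factor of polymerase I, stood at 1.15 ± 0.35 by one probe and at -0.01 by another, so its probes disagreed. Outside the lists, and named by the rule for bright or doubly measured genes, were 3 more nucleolar proteins. NOL11 differed by 1.19 ± 0.27, NIFK by 1.13 ± 0.27 and SURF6 by 1.11 ± 0.35, the last with another probe at 1.08. A family of small-subunit processome factors was looked up after these values were seen: of 11 UTP genes 10 lay above 0, with a median of 0.42 and none past 2-fold. Mitochondrial ribosomal proteins had a median of 0.15 over 76 genes, with 3 at least 1.5-fold higher (beside 7.02% of all genes, so no excess). The cytosolic ribosomal proteins could not be judged, since 79 of 85 were saturated.

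Many ribosome biogenesis genes carry a MYC-type E-box, CACGTG, which reads the same on both strands and neither contains nor is contained in GCGTG. It was in 15 of the 33 promoters of the measured list found in the table (45.5%), in 9.93% of all measured genes and in 7.43% of all promoters. The 2 members with the largest differences that hold it are printed to show where it falls, with CACGTG in capitals. PNO1 lies at chr2:68157638-68157937 and LTV1 at chr6:143843088-143843387, both on the plus strand.
PNO1: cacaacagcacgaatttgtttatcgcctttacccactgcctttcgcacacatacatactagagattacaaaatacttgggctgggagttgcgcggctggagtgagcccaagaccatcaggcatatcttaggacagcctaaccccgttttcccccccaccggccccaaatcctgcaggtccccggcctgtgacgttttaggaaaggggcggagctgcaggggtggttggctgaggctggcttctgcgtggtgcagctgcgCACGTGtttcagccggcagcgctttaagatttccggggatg
LTV1: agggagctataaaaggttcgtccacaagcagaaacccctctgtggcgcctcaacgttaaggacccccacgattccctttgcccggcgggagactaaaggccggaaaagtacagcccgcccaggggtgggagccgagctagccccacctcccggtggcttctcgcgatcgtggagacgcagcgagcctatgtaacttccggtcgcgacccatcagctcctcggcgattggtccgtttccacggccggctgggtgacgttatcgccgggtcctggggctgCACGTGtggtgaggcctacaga
The E-box begins 9 bases after the start site in PNO1 and 28 after it in LTV1. Within the list, the 15 genes with the letters had a median difference of 0.30 and the 18 without them 0.42, so inside the list the letters did not go with larger differences. MYC itself was bright and flat, at 3.95 and 3.90, a difference of -0.04 ± 0.27, with its other probe at -0.41. MNT, a repressor that competes with MYC for the partner MAX, went from 2.87 to 1.34, a difference of -1.53 ± 0.27, with its other probe at -0.88. MXI1, another such repressor, differed by -0.91 ± 0.29. MGA, also a MAX partner that represses, stood on the other side at 0.77 ± 0.35, with its other probe at 0.96. Of 13 genes of the MYC network 11 lay below 0.

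**Figure D3:**
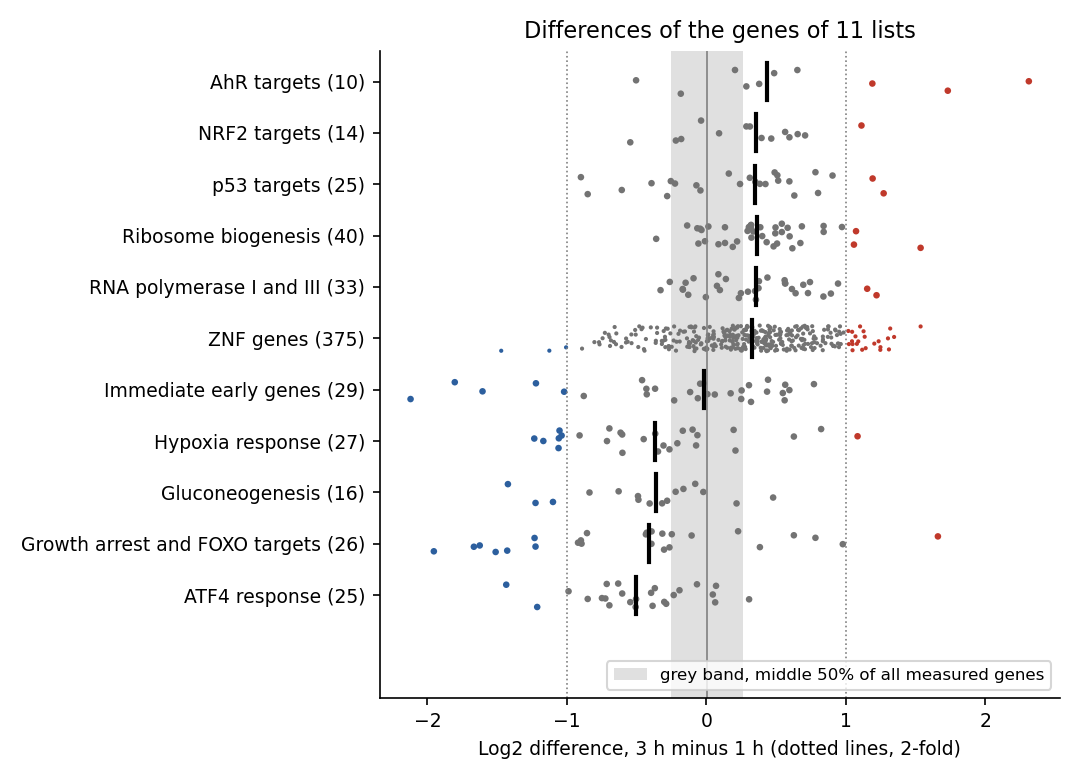
Each point is a measured gene, placed by its log2 difference (3 h minus 1 h) in the row of its list, with the number of genes in brackets, a black bar at the list's median and a grey band over the middle 50% of all measured genes. List medians run from 0.43 for AhR targets to -0.50 for ATF4 response genes, and immediate early genes have a median near 0 with a tail of 5 genes past 2-fold lower.

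Zinc finger genes were the largest family with a shared direction. Of 431 ZNF genes on the array 375 were measured. At least 2-fold higher were 23 (6.13%, beside 1.17% of all genes) and at least 2-fold lower 3 (0.80%, beside 1.61%). At the 1.5-fold line the counts were 102 higher and 18 lower, beside 7.02% and 7.35% of all genes. The median was 0.32, and the other probes of 119 members had a median of 0.46. ZNF721 went from -1.19 to 0.16, a difference of 1.35 ± 0.29. ZNF146 went from -0.93 to 0.28 (1.20 ± 0.29), and its other probe gave 1.58. ZNF26 differed by 1.13 ± 0.35 with its other probe at 1.17, and ZNF131, one of the brighter members, by 1.13 ± 0.27. ZNF217, a repressor of another subfamily, was the lowest at -1.47 ± 0.27. The family is dim, with 94 members in the dimmest of the 5 classes of level and 17 in the brightest. Its median was 0.40, 0.36, 0.28, 0.19 and 0.00 from the dimmest to the brightest class, where all genes had between -0.02 and 0.06. Under normexp background correction and the other scalings the family's median lay between 0.15 and 0.32. These genes resemble each other in sequence, and how far a probe reads relatives was not tested.

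**Figure D4:**
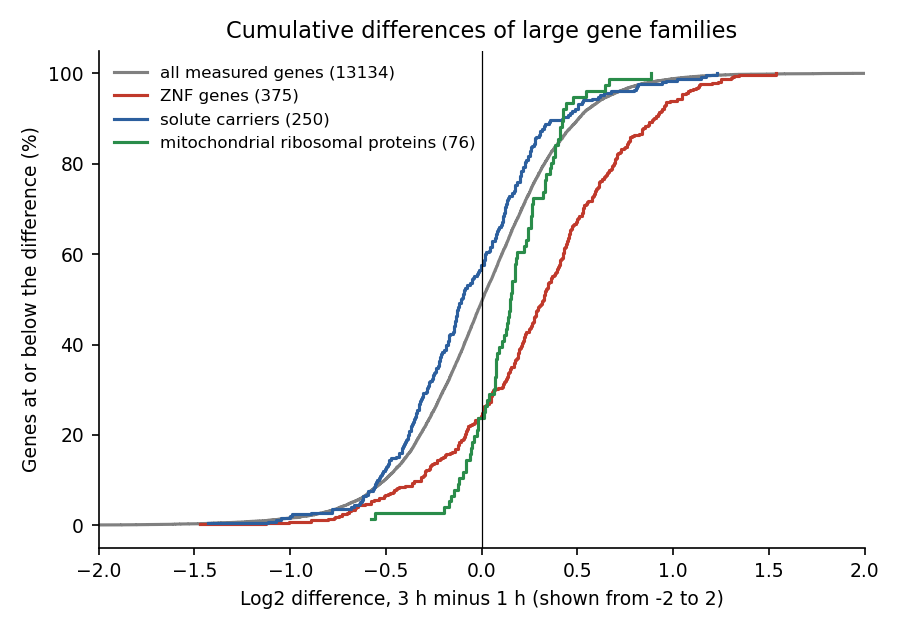
Cumulative share of genes (%) at or below each log2 difference, 3 h minus 1 h, for all measured genes, 375 ZNF genes, 250 solute carriers and 76 mitochondrial ribosomal proteins. The ZNF curve lies to the right of all genes over most of its length, with a median of 0.32, and the solute carriers lie slightly to the left, with a median of -0.10.

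Several stress lists leaned upward with few genes past 2-fold. Of 23 NRF2 targets on the array, which guard against oxidants, 9 were saturated and could not be judged. Of the 14 measured 1 was at least 2-fold higher (7.14%, beside 1.17% of all genes). This was GCLM, a subunit of the enzyme that limits glutathione synthesis, which went from 0.85 to 1.96, a difference of 1.11 ± 0.27. SRXN1, sulfiredoxin, differed by 0.65 ± 0.27 and HMOX1, heme oxygenase, by 0.56 ± 0.27, and the list's median was 0.35. Of 25 p53 targets 2 were past 2-fold higher (8%, beside 1.17% of all genes), with a median of 0.35. At least 1.5-fold higher were 7 (beside 7.02% of all genes) and at least 1.5-fold lower 3 (beside 7.35%). TRIAP1, an inhibitor of apoptosis, went from 1.56 to 2.83 (1.27 ± 0.27). MDM2, the ubiquitin ligase of p53, differed by 1.19 ± 0.35, with its other probe at 0.46. Members of the p53 list went both ways, with TP53INP1, a cofactor of stress responses, at -0.90 ± 0.29. For the 6 p53 targets with another probe the median was 0.16 by the gene probes and 0.07 by the others. SLC30A1, which exports zinc and responds to it, went from 1.86 to 3.00, a difference of 1.14 ± 0.27. The 34 proteasome subunits had a median of 0.25 with none past 2-fold.

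Immediate early genes held 5 that were much lower at 3 h, and the other members went both ways. Of 29 measured 5 were at least 2-fold lower (17.2%, beside 1.61% of all genes), none at least 2-fold higher, and the median was -0.02. FOS, the AP-1 subunit that growth factors switch on first, went from 0.02 to -2.10, a difference of -2.12 ± 0.35, or 4.35-fold lower. At least 1.5-fold higher were 2 members, beside 7.02% of all genes. The values ran from -2.12 to 0.77, the highest being KLF4, a Kruppel-like factor. FOSB, a close relative of FOS, went from -0.79 to -2.59 (-1.80 ± 0.35). FOSL2, the Fra-2 subunit, differed by -1.02 ± 0.29, with its other probes between -0.67 and -0.58. JUND, an AP-1 partner and a very bright gene, went from 6.17 to 4.94 (-1.22 ± 0.27). These levels were about those of the saturated marker ALB, at 5.74 and 4.96. How far the scanner's upper limit bears on JUND was not tested. Over the alternative ways of processing its difference lay between -1.28 and -0.83, so it was not past 2-fold in all of them. PIM1, a serine kinase induced by STAT signals, went from 2.34 to 0.73, a difference of -1.60 ± 0.27. JDP2, an AP-1 repressor outside the list, went from 2.68 to 1.11 (-1.57 ± 0.27). SOCS3, a feedback inhibitor of STAT signalling, could not be called, since its probes stood at 1.20 and -1.17.

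Growth arrest genes and FOXO targets were lower at 3 h. This list, like the others, was chosen with earlier results of these data known. Of 26 measured 7 were at least 2-fold lower (26.9%, beside 1.61% of all genes) and 1 at least 2-fold higher (3.85%, beside 1.17%). Below 0 lay 20 of the members, and the median was -0.41. YPEL2, of a family named for its founding member in Drosophila, went from -1.72 to -3.39, a difference of -1.67 ± 0.35, and its other probe gave -1.98. DEPP1, a FOXO target in autophagy, went from 1.49 to -0.13 (-1.62 ± 0.27, other probe -1.70). KLHL24, a ubiquitin ligase adaptor, went from -1.65 to -3.08 (-1.43 ± 0.35, other probe -1.08). HBP1, a repressor of cell cycle genes outside the list, went from -1.06 to -2.37 (-1.32 ± 0.35, other probe -1.36).

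FOXO1, the transcription factor itself, went from 2.58 to 1.36, a difference of -1.23 ± 0.27, with its other probe at -0.99. INSR, the insulin receptor and a FOXO target, went from -0.91 to -2.42 (-1.51 ± 0.35). CCNG2, an unusual cyclin of arrested cells, stood at -1.95 ± 0.35 by one probe and at -0.12 by the other. Against the list's direction, ARRDC4 went from -1.49 to 0.17 (1.66 ± 0.29) and TXNIP from 2.64 to 3.62 (0.98 ± 0.27). Both are arrestin-fold proteins that curb glucose uptake and answer to the glucose sensor MondoA. GADD45A and GADD45B, stress genes of growth arrest, stood at 0.78 ± 0.27 and 0.63 ± 0.29, the latter with another probe at 0.71. A median of -0.36 over the other probes of 12 members lay beside -0.62 for the gene probes of the same 12.

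The FOXO site GTAAACA, read on both strands, was in 4 of 22 promoters of the measured list found in the table (18.2%), in 2.28% of all measured genes and in 3.41% of all promoters. It contains neither of the motifs named before, nor do they contain it. The 4 genes were DEPP1, BTG1, TXNIP and YPEL3. DEPP1 is printed as the one with the largest difference, at chr10:44978760-44979059 on the minus strand, with the site in capitals 180 bases before the start.
DEPP1: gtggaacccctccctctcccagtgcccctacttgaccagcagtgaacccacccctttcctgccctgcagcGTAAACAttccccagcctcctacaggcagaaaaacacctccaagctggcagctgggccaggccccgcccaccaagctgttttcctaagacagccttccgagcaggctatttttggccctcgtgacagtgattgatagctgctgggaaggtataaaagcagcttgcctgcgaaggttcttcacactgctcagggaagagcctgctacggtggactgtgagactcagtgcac
The 4 genes with the letters had a median difference of -1.06 and the 18 without them -0.41. Over all measured genes with a promoter, the 240 with the letters had a median of 0.04 and those without them 0.01. The site was in 2.59% of the higher genes and in 2.99% of the lower genes. As with the other motifs, these matches describe letters in a window and show no binding. BTG1 stood at -1.23 ± 0.27 and YPEL3 at -0.90 ± 0.29, while TXNIP was higher at 3 h.

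Genes that answer to fasting, low oxygen and amino acid shortage were also on the low side. The lists share some members, so they are not separate results. FOXO1 is in both the gluconeogenesis and growth arrest lists, and DDIT4 and STC2 are in both the hypoxia and ATF4 lists. TP53INP1, SESN1 and GADD45A are in both the p53 and growth arrest lists. Of 16 measured gluconeogenesis genes 3, FOXO1 among them, were at least 2-fold lower (18.8%, beside 1.61% of all genes). Below 0 lay 14, with a median of -0.36. PCK1, the gatekeeping enzyme of glucose output, went from 0.10 to -1.32 (-1.42 ± 0.29), with its other probe at -0.43. KLF15, a fasting-induced factor, differed by -1.10 ± 0.35. The other probes of 10 members of this list had a median of 0.07, so they did not share its direction. Of 27 hypoxia response genes 6 were at least 2-fold lower (22.2%, beside 1.61% of all genes) and 1 at least 2-fold higher (3.70%, beside 1.17%), with a median of -0.37. ANKRD37, a HIF target, went from 0.03 to -1.20 (-1.23 ± 0.29), EGLN3, an oxygen sensor, from -0.33 to -1.38 (-1.06 ± 0.29) and PFKFB4, a regulator of glycolysis, from 1.74 to 0.68 (-1.06 ± 0.27). The 4 probes of its relative PFKFB3 ranged from -2.71 to 0.31.

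ATF4 response genes, which amino acid shortage and stress in the endoplasmic reticulum switch on, were mostly lower too. Of 31 on the array 5 were saturated and could not be judged. Of 25 measured 21 lay below 0, with a median of -0.50. At least 1.5-fold lower were 10 (beside 7.35% of all genes), and none was as far higher (beside 7.02%). For the 11 members with another probe the median was -0.55 by the gene probes and -0.27 by the others. CEBPB, a factor of the acute phase and of ATF4 signalling, went from 4.85 to 3.42 (-1.44 ± 0.27), with its other probe at -0.73. NUPR1, a small stress protein, went from 3.13 to 1.91 (-1.21 ± 0.27). SLC38A2, an amino acid transporter, differed by -0.99 ± 0.27, with its other probe at -0.69. The aminoacyl-tRNA synthetases, several of them ATF4 targets too, had a median of 0.03 over 22 genes.

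Some of the largest decreases belonged to none of these lists. PDIA4, a disulfide isomerase of the endoplasmic reticulum, went from 3.71 to 1.77, a difference of -1.93 ± 0.27, while the 19 measured ER chaperones had a median of -0.08. SNRNP40, a spliceosome protein, went from 0.19 to -1.69 (-1.88 ± 0.29, other probe -0.94). HNRNPL, which regulates splicing, went from 2.12 to 0.61 (-1.51 ± 0.27), and its other probes gave -1.57 and -1.41. HNRNPA0 differed by -1.22 ± 0.27 with its other probe at -0.95. The other 16 of 18 measured HNRNP genes, a family looked up after these values were seen, were not past 2-fold by the probes that stand for them. BRD3, a chromatin reader of the BET family, differed by -1.01 ± 0.27, with its other probe at -0.87. HEXIM1, which holds the elongation factor P-TEFb inactive, differed by 0.28 ± 0.27. CD4, known as the coreceptor of helper T cells, went from 3.46 to 1.68 (-1.78 ± 0.27), while none of the 9 measured haematopoietic markers was past 2-fold.

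At least 4-fold lower were 9 genes. FRMD4A had the largest value, at -3.68 ± 0.35, but its other probes stood between -0.30 and 0.19. FUT1, a fucosyltransferase of blood group H, went from -1.03 to -4.17 (-3.14 ± 0.35). LY6G5C, CRCT1, CFAP74, TMCC2, GNG13, JAKMIP3 and FOS were the others, and each of these 8 genes after FRMD4A had a single measured probe. Most were not low on the later arrays. At 12 h LY6G5C, CRCT1, CFAP74, TMCC2, GNG13 and JAKMIP3 stood between 1.15 and 2.80 above the control. At 24 h they stood between -0.75 and -0.05. FUT1 was near the control at 12 h, while FOS (-2.10) and FRMD4A (-2.77) were below it.

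Genes with several probes gave a check inside the arrays. Of the 154 higher genes 40 had another measured probe. The median difference was 1.11 by the gene's own probe and 0.68 by the others, 36 of 40 agreed in sign, and 14 were past 2-fold by the others too. Of the 211 lower genes 68 had another probe, with medians of -1.21 and -0.37, 50 of 68 agreeing in sign and 7 past 2-fold. Among all 4748 genes with another probe, those probes were past 2-fold upward in 62 and downward in 66. Every measured probe was at least 1.5-fold the same way for 20 higher and 22 lower genes. NABP1, a single-stranded DNA binding protein of DNA repair, was among them at 1.27 ± 0.29 and 1.64, and LINS1, a homologue of the Drosophila lines gene, at 1.77 ± 0.35 and 1.25.

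**Figure D5:**
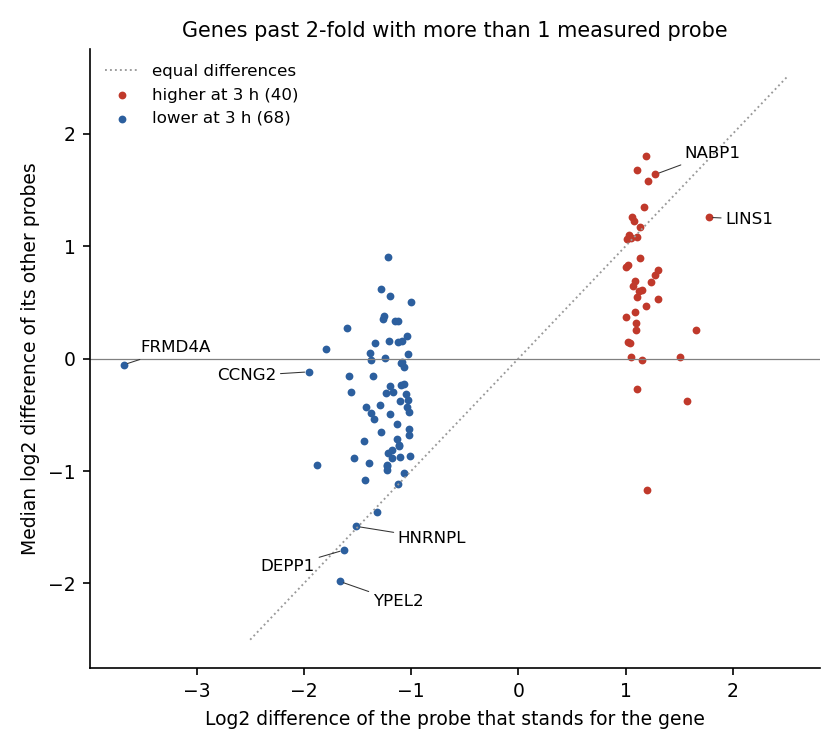
Each point is a gene past 2-fold with more than 1 measured probe, with the log2 difference (3 h minus 1 h) of the probe that stands for the gene on the x axis and the median difference of its other probes on the y axis; the dotted line marks equal differences. The 40 higher genes sit mostly above 0 on the y axis (36 of 40), and the 68 lower genes spread from -1.98 to above 0.

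The arrays at 6, 12 and 24 h, set against the control, share no array with the comparison of 3 h and 1 h, although they share the control with each other. They were read relative to the median of all measured genes, since the 6 h and 12 h arrays were dim (75th percentiles of 140 and 376 units). The genes higher at 3 h had a median of 0.82 at 6 h over the 87 that were measured there, 0.38 at 12 h over 126 and 0.38 at 24 h over 143. At 6 h 39.1% of them were at least 2-fold above the control, beside 12.7% of all genes. At 12 h the shares were 19.0% and 6.91%, and at 24 h 22.4% and 6.93%. The genes lower at 3 h had medians of -1.21, -0.93 and -0.84 over 129, 179 and 195 genes. At 6 h 55.8% of them were at least 2-fold below the control, beside 16.1% of all genes, at 12 h 44.1%, beside 11.8%, and at 24 h 44.1%, beside 10.0%.

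The lists differed in how long this lasted. Ribosome biogenesis genes had medians of 0.74, 0.53 and 0.65 at 6, 12 and 24 h. Growth arrest genes had -1.34, -0.93 and -0.66, and hypoxia genes -0.81, -0.55 and -0.33. ATF4 response genes had -1.04 at 6 h, -0.24 at 12 h and 0.11 at 24 h. ZNF genes had 0.10, 0.02 and 0.21. NRF2 targets had 0.15, 0.26 and 0.32, while p53 targets had -0.30, -0.14 and -0.17, below the median of all genes. AhR targets as a list had -1.13, -0.66 and -0.41, while CYP1A1 stood 3.53 above the control at 6 h and AHRR 4.33 above it, both without subtracting that median.

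Levels at 1 h and 3 h can also be set beside the control array, which is no part of the comparison. These values share the 1 h and 3 h arrays with that comparison. For the genes past 2-fold, the rule that picked them fixes which time lies higher. The gap between their counts at 1 h and 3 h is therefore no separate result. Of 146 higher genes also measured on the control array, 99 were below it at 1 h and 2 at 3 h, with medians of -0.21 and 0.97. Of 202 lower genes, 84 were below it at 1 h and 191 at 3 h, with medians of 0.07 and -1.12. AhR targets as a list had medians of -0.22 and 0.03, with 7 and 4 of 9 below the control. Immediate early genes stood at -0.42 and -0.41, and p53 targets at -0.08 and 0.00. Ribosome biogenesis genes had medians of 0.02 and 0.50. ZNF genes had -0.14 and 0.24. Growth arrest genes were already at -0.51 at 1 h and reached -0.75 at 3 h.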

How the data were processed

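The scanner files held intensity values per spot, already corrected for background by the scanner software, per the file headers, and were not normalized between arrays; the authors' deposited value table held unscaled intensity too. RNA was column-purified and linearly amplified, as the labels say. Cy5 is the dye in the labels, while the files hold the green channel alone. For the scanner software's version and the probes' genome build: not given in the sources used here.

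Signals were averaged over the spots of a probe and scaled to the 75th percentile of each array, with the 1639 control spots and outlier flags left out. Probes were named by accession or symbol through RefSeq (GRCh38.p14), 23429 of them by their own accession, and 14130 matched no gene. A gene was read by the brightest of all its probes over both arrays, and it was left out where that probe was saturated or not well above background. Named genes were the 10 most raised and 10 most lowered with several probes agreeing, the 8 and 8 most changed bright genes with 1 probe, up to 5 members of each of 54 lists, and CYP1A1, AHRR, MYC, FOS, PIM1 and HEXIM1; some genes under this rule are left out. Genes past 4-fold and 3 families were added after their values were seen. The members and lists were chosen with earlier results of these data known. No test was run, since each group held 1 array, and the number of arrays limits the precision. The procedure was tested on simulated data. Alternatives were quantile and cyclic loess normalization, centring, normexp background (offset 50), the deposited table, other filters and other probe rules, with R 4.3.3, limma 3.58.1 and Python 3.11.15.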

Additional observations from a re-analysis of the deposited data

How the results depend on the processing

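No paired analysis was possible because each group held 1 array. For the same reason no array could be left out. Quantile normalization, cyclic loess, centring, the authors' deposited values, saturated probes kept and other probe rules left both counts of genes past 2-fold within 1.5 times of 154 higher and 211 lower. Normexp background gave 42 higher genes. Without the filter on background 771 were higher and 475 lower, and among genes above the median level 28 were higher and 65 lower. Counting genes whose several probes agreed, an alternative chosen after seeing the data, gave 20 higher and 22 lower. Of 834 values of the 89 named genes past 2-fold, 781 stayed past it and 3 turned sign: CA12 to -0.0476 with normexp background, UBTF to -0.0286 in the authors' deposited values, and CRIM1 to 0.0413 with the probe chosen over all 6 arrays. Dropping the background filter, keeping saturated probes and taking genes above the median level could not change these differences. With normexp background 68 of 89 stayed past 2-fold, in the authors' deposited values 76 of 88 and by the mean of a gene's probes 76 of 89. Past 2-fold under every alternative that measured them were 57 of the 89. The cause of these changes was not tested, apart from the smaller or larger number of genes that each filter leaves. Signal over background limits the dim genes most.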

Other observations

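Genes above background at 1 time alone have a bound in place of a difference, the brighter level over the higher of the gene's own dim level and the lowest signal well above background on the other array. Only genes with no probe above background on the dimmer array enter here, which leaves 583 of 591 at 3 h and 176 of 186 at 1 h. This rule fixes the direction of each gene, so the counts and bounds give sizes and no support for a direction. Of the 583, 64 were at least 2-fold higher than at 1 h. MED18, a Mediator subunit, was at least 10.4-fold higher, and RP1, a photoreceptor microtubule protein, at least 12.0-fold. None of the 30 measured Mediator genes was past 2-fold. Of the 176, 95 were at least 2-fold lower at 3 h. TAAR6, a trace amine receptor, was at least 6.44-fold lower, and AQP1, a water channel, at least 5.72-fold.

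Of the 54 lists, several showed little. Cholesterol synthesis and uptake had a median of -0.14 over 24 genes with none past 2-fold. Fatty acid oxidation (0.00 over 20 genes), DNA replication (0.03 over 29), the circadian clock (-0.05 over 18) and Mediator (0.04 over 30) had none past 2-fold either. The 58 measured replication-dependent histone genes had a median of -0.26, with 47 below 0 and 1 past 2-fold, H4C16 at -1.45 ± 0.40. Histone genes resemble each other, so their probes may read several. PMEPA1, an inhibitor of TGF-beta signalling, stood at 1.94 ± 0.40 while 20 genes of that response had a median of -0.09.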
